A study of Mus musculus with 16 samples.

Results

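The comparison described here is that of Clever-1 KO with WT lymphatic endothelial cells (LECs) at steady state, and its members are the 8 steady state libraries of 16 in all, found by genotype and treatment in the sample labels. The KO group held 4 libraries of Stab1-/- mice and the WT group 4 libraries of wild type mice, none of them injected. Clever-1 is the product of Stab1. The LECs came from popliteal and brachial lymph nodes (LNs), which were digested with collagenase and sorted for live CD45- CD31+ podoplanin+ cells, and each library held cells of 2 pooled mice. The labels give the strain of both groups as C57BL/6, whereas the methods describe mice of both sexes, 6 to 12 weeks old, on a mixed C57BL/6N and 129SvJ background. In such a design the loss of Clever-1 and any strain-derived sequence that goes with one genotype cannot be told apart. The other 8 libraries were LECs of the same genotypes taken 1 day after injection of ovalbumin with adjuvant, called inflamed below, and they served as a second set of KO and WT libraries.

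LECs line the sinuses of the LN, where lymph enters and where leukocytes and antigen are passed on to the parenchyma. Different stretches of the sinus have different tasks: LECs of the ceiling, the floor and the medulla carry different scavenger receptors, lectins, chemokine sinks and addressins. Clever-1, also called Stabilin-1, is a large scavenger receptor that takes up modified lipoproteins and extracellular matrix fragments and can bind lymphocytes. The related receptor Stabilin-2 is encoded by Stab2.

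Levels were deposited as TPM, a transcript abundance unit, in which reads are divided by transcript length and scaled in each library to a fixed total, so the sequencing depth is unknown and the only measure of precision is how far the 4 libraries of a group differ. Between 11898 and 12095 genes reached 1 TPM in a library. WT replicate 4 stood apart: its correlation with the other 7 libraries was 0.967 to 0.974 on the log2(TPM + 1) scale over all tested genes, against 0.982 to 0.985 among the KO libraries and 0.9797 to 0.986 among the other WT libraries. KO replicate 2 held the highest summed level of 7 keratinocyte and epithelial genes, 48.6 TPM. All 6 genes of the Y chromosome in the sex-linked list were listed at 0 in all 8 libraries, although the methods describe mice of both sexes. Whether these libraries held only female mice or these genes were not counted cannot be told apart.

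The targeted gene followed the labels. Stab1 (chr14:31139017-31168651 of GRCm38, the assembly of mm10, minus strand) had 5.09, 6.07, 6.66 and 5.72 TPM in the KO libraries, against 235, 245, 248 and 237 TPM in the WT libraries (exact two-sided permutation test, p = 0.0286, the smallest that 4 against 4 allows, and 0.114 adjusted over Stab1 and 3 sort markers). Stab2, by contrast, overlapped between the groups, with 382, 289, 444 and 341 TPM in the KO libraries, against 387, 399.8, 369 and 421 TPM in the WT libraries (log2 fold change -0.13, 95% interval -0.38 to 0.12). The 3 sort markers also overlapped: Pecam1, which encodes CD31, had 772 to 869.6 TPM in KO LECs and 845 to 863 TPM in WT LECs, Pdpn, which encodes podoplanin, had 65.8 to 73.02 TPM in KO LECs and 69.9 to 76.9 TPM in WT LECs, and Ptprc, which encodes CD45, had 1.03 to 1.84 TPM in KO LECs and 0.778 to 2.84 TPM in WT LECs. Prox1, the master regulator of the lymphatic endothelium, had 53.5 to 83.3 TPM in KO LECs and 54.4 to 86.8 TPM in WT LECs.

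Of 12058 genes tested with limma, 52 were higher and 47 were lower in KO LECs, 99 in all or 0.821% of the genes tested. By direction this is 0.431% higher and 0.39% lower. To be called, a gene needed to differ by 1 or more on the log2(TPM + 1) scale together with an adjusted p of 0.05 or less. This scale understates the change of genes with low levels. For 98 of the called genes no KO library fell within the range of the WT libraries, a separation found in 6.54% of all tested genes (2.73% with KO above and 3.81% with KO below). Few of the called genes were abundant: 14 reached a group mean of 100 TPM, and 24 stayed under 5 TPM in both groups. Of the higher genes, 13 were under 1 TPM in every WT library, and 8 of the lower genes were so in every KO library. Such genes entered the test through 1 group only. The 95% interval of the log2 fold change lay within 1 on either side of 0 for 11403 genes, or 94.6%. At low levels this does not bound the TPM ratio at 2-fold. Without WT replicate 4, 49 genes were higher and 40 lower, and 80 of these were also called with all libraries. Leaving out KO replicate 2 or KO replicate 3 gave 33 or 30 higher genes, but 13 of the 52 higher genes, among them Rprl3, Fbp1, Snora21 and Rnase1, then no longer reached 1 TPM in 4 libraries and were not tested. Of the 99 genes, 55 were tested and called in each of the 8 single omissions (27 higher, 28 lower), 19 could not be tested in at least 1 omission and were called in the others, and 25 were tested and not called in at least 1. With the other settings included, 30 genes were tested and called throughout. A fit over all 16 libraries did not call 33 of the genes, and of those described below these were Ablim1, Ccr7, Csf3, Ctsg, Duox2, Fut7, Glycam1, Hpgd, Hyou1, Ifi211, Il1b, Il1r2, Mdk, Postn, Prss23, Rpph1, S100a9, Serpina11, Serpina3h, Serpina3k, Serpina3m, Siglech, Smoc1, Snora21, Snord35b and Zfp367. A pseudocount of 5 TPM in place of 1 did not call 54, and of those described below these were Acat3, Adh1, Ccr7, Cd5l, Csf3, Ctsg, Duox2, Fut7, Gstt3, H60b, Hpgd, Ifi211, Il1b, Il1r2, Krt23, Lefty1, Mdk, Rgcc, Rnase1, Rnase10, Rpph1, Serpina11, Serpina12, Serpina3k, Serpina3m, Siglech, Smoc1 and Zfp367.

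**Figure D1:**
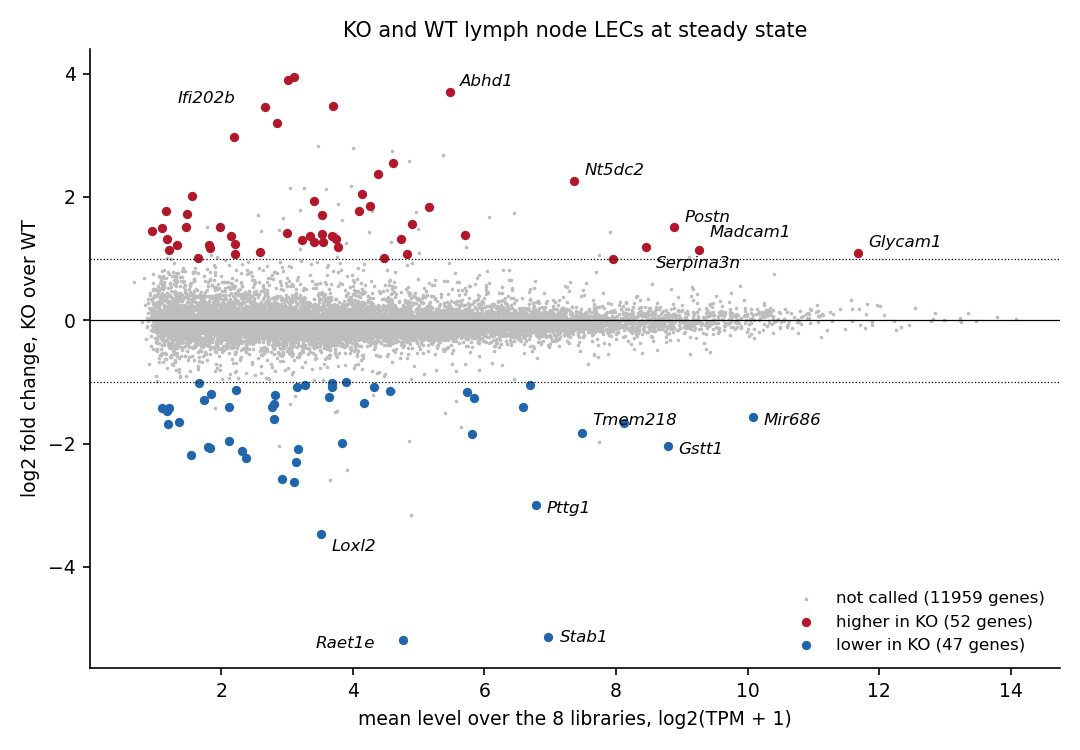
Each point is 1 of 12058 genes, with the mean level over the 8 steady state libraries on the x axis (log2(TPM + 1)) and the log2 fold change of KO over WT on the y axis. Red points are the 52 genes called higher and blue points the 47 called lower in KO LECs, dotted lines mark a log2 fold change of 1 on either side, and Stab1 and Raet1e lie lowest, at -5.14 and -5.18.

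Among the genes with the largest increases were several with almost no signal in WT LECs. Rprl3, an RNA gene related to the RNA of ribonuclease P, had 9.73, 15.9, 23.8 and 11.2 TPM in the KO libraries and was listed at 0 in all 4 WT libraries (limma adjusted p = 3.03e-06). Snora21, a small nucleolar RNA that guides pseudouridylation, likewise had 14.05, 13.9, 9.796 and 18.8 TPM in KO LECs and was listed at 0 in WT LECs (limma adjusted p = 3.85e-07). Fbp1, the fructose-bisphosphatase of gluconeogenesis, had 11.1, 6.17, 4.29 and 7.24 TPM in KO libraries and was listed at 0 in each WT library (limma adjusted p = 1.85e-05). For these genes no fold change is given, because a group at 0 sets no bound in TPM. Ifi202b, an interferon-inducible gene of the p200 family, had 7.94, 13.1, 8.99 and 12.7 TPM in the KO libraries, against 0.0768, 0, 0 and 0.116 TPM in the WT libraries (limma adjusted p = 9.04e-07, log2 fold change 3.45). Iqcg, which encodes an axonemal protein of cilia and flagella, had 11.98, 8.98, 12.8 and 13.97 TPM in the KO libraries, against 0.241, 0.835, 0.354 and 0.252 TPM in the WT libraries (limma adjusted p = 2.43e-06, log2 fold change 3.19). In each of these 5 genes the lowest KO library lay several TPM above the highest WT library. All 5 reached 1 TPM in KO libraries only, so they entered the test through the group where they are higher. A WT group at or near 0 shows little spread, which limits what the p-values measure. Snora21 and Rprl3 are short, at 128 and 235 bases, and the number of reads behind their TPM is unknown. In inflamed LECs Snora21 overlapped between the genotypes, as given below.

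Other increases started from a clear WT level. Abhd1, annotated by RefSeq as a transcribed pseudogene on chromosome 5, had 85.3, 70.9, 75.6 and 92.3 TPM in the KO libraries, against 6.68, 5.63, 8.31 and 2.29 TPM in the WT libraries (limma adjusted p = 1.22e-05, log2 fold change 3.70 with a standard error of 0.262). Nt5dc2, a member of the 5′-nucleotidase domain family, was the most abundant of the genes with the largest increases, with 258, 247, 284 and 297 TPM in the KO libraries, against 56.7, 55.2, 59.4 and 52.5 TPM in the WT libraries (limma adjusted p = 5.03e-08, log2 fold change 2.26 with a standard error of 0.0802). Its lowest KO library lay far above its highest WT library. Gfra2, the co-receptor for neurturin, had 32.7, 29.9, 42.2 and 30.4 TPM in the KO libraries, against 6.61, 5.55, 4.33 and 6.55 TPM in the WT libraries (limma adjusted p = 6.98e-06, log2 fold change 2.36). The cell cycle kinase Cdk2 had 27.8, 24.2, 34.8 and 22.4 TPM in the KO libraries, against 5.86, 6.16, 4.68 and 6.44 TPM in the WT libraries (limma adjusted p = 1.99e-05, log2 fold change 2.05). Pla2g5, a secreted phospholipase A2, had 54.9, 46.5, 60.7 and 57.2 TPM in the KO libraries, against 14.3, 17.1, 11.6 and 15.7 TPM in the WT libraries (limma adjusted p = 1.22e-05, log2 fold change 1.84). In none of these genes did a KO library come near the highest WT library. Lrmda, which is needed for melanocyte differentiation, had 28.5, 27.6, 27.6 and 31.1 TPM in the KO libraries, against 4.401, 8.72, 10.4 and 6.58 TPM in the WT libraries (limma adjusted p = 0.000373, log2 fold change 1.85). Lrrc3b, a leucine-rich repeat membrane protein, had 45.8, 45.1, 45.3 and 37.4 TPM in the KO libraries, against 13.6, 12.5, 12.9 and 17.4 TPM in the WT libraries (limma adjusted p = 2.95e-05, log2 fold change 1.56). Serpina1e, a paralog of alpha-1-antitrypsin, had 36.3, 40.8, 32.3 and 53.1 TPM in the KO libraries, against 11.3, 4.79, 5.204 and 4.47 TPM in the WT libraries, with WT replicate 1 above the other WT libraries (limma adjusted p = 0.000142, log2 fold change 2.54). S100a9, the calprotectin subunit typical of neutrophils, had 17.4, 16.98, 16.8 and 11.3 TPM in the KO libraries, against 4.06, 3.11, 5.74 and 1.41 TPM in the WT libraries (limma adjusted p = 0.00293, log2 fold change 1.94).

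**Figure D2:**
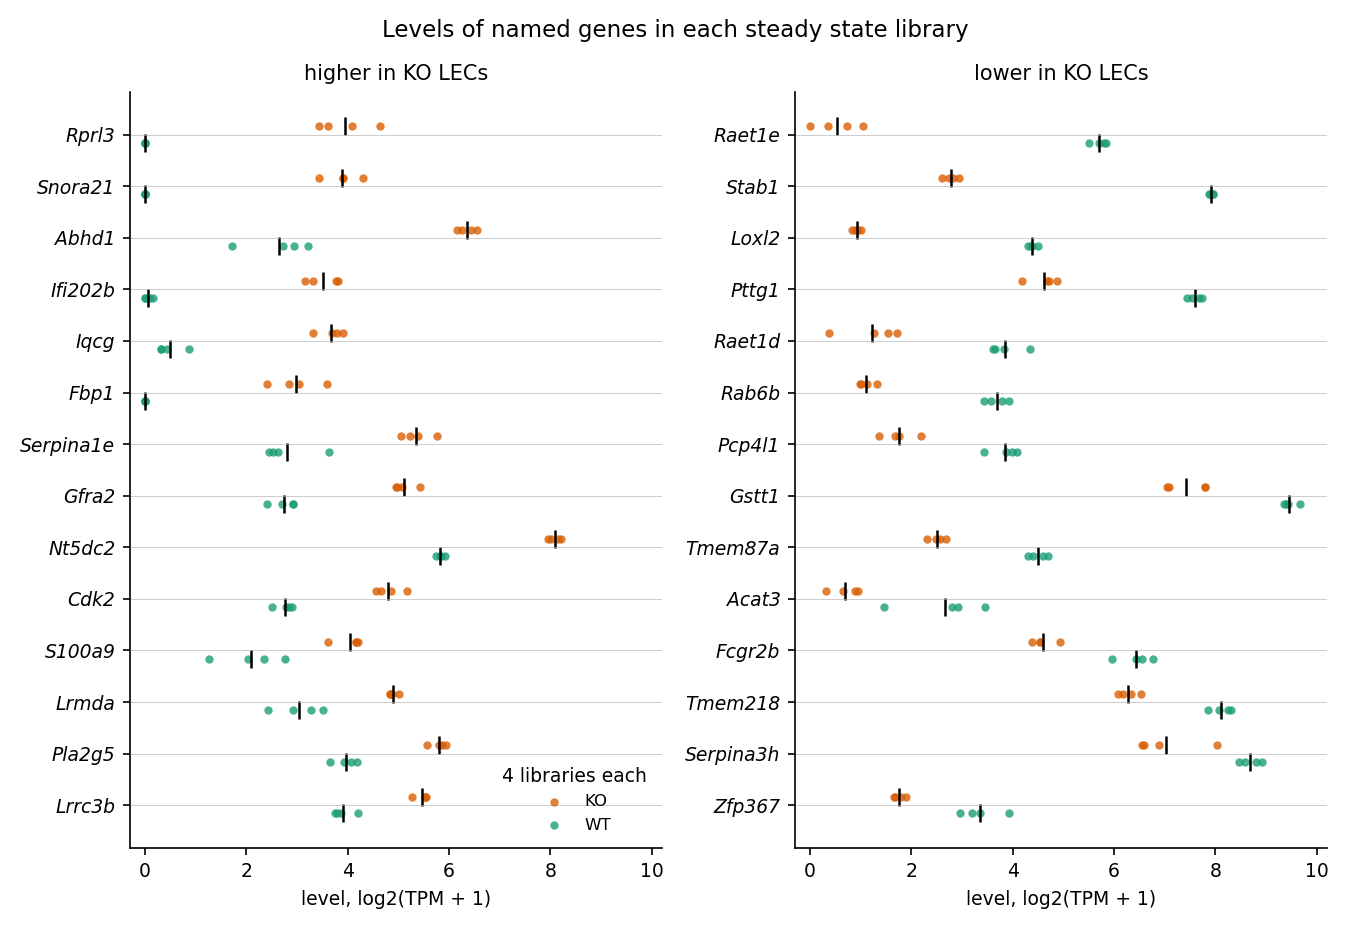
Levels on the log2(TPM + 1) scale of the 14 highest and 14 lowest log2 fold changes among called genes whose libraries did not overlap and whose higher group mean was at least 5 TPM. Each point is 1 library, with KO in orange above WT in green, and black ticks are means of 4 libraries. Rprl3, Snora21 and Fbp1 sit at 0 in WT LECs, and Stab1 lies near 5.88 TPM in KO and 241 TPM in WT LECs.

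On the other side, ligands of the activating receptor NKG2D of NK and T cells were lower in KO LECs. Raet1e had 0, 0.667, 0.277 and 1.06 TPM in the KO libraries, against 51.1, 44.7, 54.6 and 56.004 TPM in the WT libraries (limma adjusted p = 9.6e-08, log2 fold change -5.18). Raet1d had 1.41, 0.29998, 2.28 and 1.9003 TPM in the KO libraries, against 13.1, 11.5, 11.2 and 19.2 TPM in the WT libraries (limma adjusted p = 0.000301, log2 fold change -2.63). H60b, a further ligand, had 0.153 to 0.642 TPM in KO LECs and 4.12 to 5.42 TPM in WT LECs (limma adjusted p = 2.2e-05, log2 fold change -2.08). Of 10 genes in the list of these ligands 4 could be tested, 3 were lower and Ulbp1 overlapped, with 1.73 to 3.15 TPM in KO LECs and 2.11 to 3.902 TPM in WT LECs, beside 0.39% lower over all genes. The Raet1 genes are near-identical neighbours on chromosome 10, so their single values are uncertain. Raet1a was listed at 0 in all 8 libraries.

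Loxl2, an enzyme that crosslinks collagen, had 0.762, 1.01, 0.857 and 0.937 TPM in the KO libraries, against 19.9, 18.7, 19.6 and 21.6 TPM in the WT libraries (limma adjusted p = 5.37e-08, log2 fold change -3.47 with a standard error of 0.129). Pttg1, the securin that holds sister chromatids together until anaphase, had 25.1, 28.2, 24.4 and 17.1 TPM in the KO libraries, against 174, 214, 205 and 184 TPM in the WT libraries (limma adjusted p = 3.29e-07, log2 fold change -2.995 with a standard error of 0.137). In both genes the KO libraries lay far below all WT libraries. Rab6b, a small GTPase of Golgi transport, had 1.18, 1.51, 0.972 and 1.02 TPM in the KO libraries, against 9.81, 12.8, 10.9 and 14.3 TPM in the WT libraries (limma adjusted p = 3.99e-06, log2 fold change -2.57). Pcp4l1, a gene related to the calmodulin regulator Pcp4, had 1.57, 2.39, 2.205 and 3.55 TPM in the KO libraries, against 13.6, 15.9, 14.8 and 9.78 TPM in the WT libraries (limma adjusted p = 0.000134, log2 fold change -2.09). Tmem87a, a membrane protein of the Golgi, had 5.41, 4.58, 3.95 and 4.94 TPM in the KO libraries, against 23.3, 24.9, 20.1 and 18.8 TPM in the WT libraries (limma adjusted p = 1.18e-05, log2 fold change -1.99). Tmem218, a protein of the ciliary transition zone, had 71.7, 79.2, 92.1 and 66.6 TPM in the KO libraries, against 314, 269, 229.5 and 301 TPM in the WT libraries (limma adjusted p = 6.39e-06, log2 fold change -1.83). The zinc finger gene Zfp367 had 2.201, 2.73, 2.14 and 2.44 TPM in the KO libraries, against 9.27, 8.14, 6.78 and 14.2 TPM in the WT libraries (limma adjusted p = 0.00101, log2 fold change -1.61). Acat3, an acetyl-CoA acetyltransferase gene with close paralogs on chromosome 17, had 0.837, 0.931, 0.574 and 0.236 TPM in the KO libraries, against 5.94, 9.89, 1.73 and 6.57 TPM in the WT libraries (limma adjusted p = 0.0144, log2 fold change -1.96). Its WT libraries spread widely, and without KO replicate 3 or KO replicate 4 it was not called (limma adjusted p over the single omissions 0.0307 to 0.0525).

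The inhibitory Fc receptor gene Fcgr2b, whose product binds IgG immune complexes, had 22.1, 29.4, 19.9 and 22.1 TPM in the KO libraries, against 109, 93.2, 60.9 and 85.3 TPM in the WT libraries (limma adjusted p = 0.000111, log2 fold change -1.84). It was the only member of 8 tested Fc receptor genes that was called, beside 0.39% lower over all genes. In the glutathione transferase theta cluster on chromosome 10, Gstt1, which conjugates glutathione to small electrophiles, had 222, 219.8, 131 and 135 TPM in the KO libraries, against 816, 687, 672 and 652 TPM in the WT libraries (limma adjusted p = 4.79e-05, log2 fold change -2.03). KO replicates 1 and 2 lay above KO replicates 3 and 4, and all were under the WT libraries. Its neighbour Gstt3 had 1.92 to 3.52 TPM in KO LECs and 6.48 to 10.1 TPM in WT LECs (limma adjusted p = 0.00143, log2 fold change -1.40). Gstt2 and Ddt, which lie in the same cluster, were lower by less than 2-fold, with log2 fold changes of -0.57 and -0.53 (limma adjusted p = 0.00306 and 0.00249). Of 33 tested antioxidant and detoxification enzymes, 2 were lower and 0 higher, beside 0.39% lower and 0.431% higher over all genes. The list had a median log2 fold change of -0.01 beside -0.04 over all genes. Prdx3, the mitochondrial peroxiredoxin, was lower by less than 2-fold, with 163 to 169.6 TPM in KO LECs and 225 to 271 TPM in WT LECs (limma adjusted p = 0.000739, log2 fold change -0.60).

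Serpins, which inhibit proteases, changed in both directions. Of 23 tested, 3 were higher and 3 lower, beside 0.431% higher and 0.39% lower over all genes, and all of the called ones lie in the Serpina cluster of chromosome 12. The most abundant of the higher ones, Serpina3n, an inhibitor of granzyme B and other serine proteases, had 514, 409.5, 484 and 533 TPM in the KO libraries, against 190.5, 210.4, 241 and 204 TPM in the WT libraries (limma adjusted p = 3.56e-05, log2 fold change 1.19 with a standard error of 0.0967). Serpina12, also called vaspin, had 3.38 to 6.203 TPM in KO LECs and 0.565 to 1.43 TPM in WT LECs (limma adjusted p = 0.00138, log2 fold change 1.51). Serpina11, in the same cluster and outside the list, was higher too, with 1.09 to 3.09 TPM in KO LECs and 0 to 0.273 TPM in WT LECs (limma adjusted p = 0.00371, log2 fold change 1.49). Serpina3h, annotated as a transcribed pseudogene, went the other way, with 95.6, 118, 261 and 92.6 TPM in the KO libraries, against 350.4, 444, 482 and 381 TPM in the WT libraries (limma adjusted p = 0.00737, log2 fold change -1.67), and KO replicate 3 lay between the other KO libraries and the WT libraries. Serpina3m had 0.8102 to 3.08 TPM in KO LECs and 4.06 to 6.296 TPM in WT LECs (limma adjusted p = 0.0143, log2 fold change -1.41) and was not called without any one of KO replicate 3 or 4 (limma adjusted p 0.00066 to 0.05197). Serpina3k had 0.604 to 1.52 TPM in KO LECs and 1.96 to 4.13 TPM in WT LECs (limma adjusted p = 0.0386, log2 fold change -1.01) and was not called without any one of KO replicate 1, 2, 3 or 4 or WT replicate 1, 3 or 4 (limma adjusted p 0.0183 to 0.118). The abundant paralog Serpina3f was lower by less than 2-fold, with 503 to 661 TPM in KO LECs and 741 to 812 TPM in WT LECs (limma adjusted p = 0.0167, log2 fold change -0.47). The Serpina3 and Serpina1 genes are recent duplicates that can share reads, so the split between single paralogs is uncertain.

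The genes next to Stab1 differed between the genotypes as well. Of 409 tested genes of chromosome 14, 16 were called, or 3.91%, the largest share of any chromosome, followed by chromosome 12 with 9 of 432 and chromosome 10 with 10 of 561. Within 20 Mb of Stab1, 8 of 161 genes were called (4 higher, 4 lower), or 4.97%, beside 0.766% of all genes elsewhere. Within 10 Mb it was 4 of 83, or 4.82%, beside 0.795% elsewhere. The counts for chromosome 14 and for both distances include Stab1 itself, whose call follows from the knockout. They also include Nt5dc2, which overlaps Stab1. Farther than 20 Mb out on the same chromosome, 8 of 248 were called, or 3.23%, among them Loxl2, Gfra2, Mir686 and Supt16. Nt5dc2 (chr14:31131089-31139124, plus strand) and Stab1 (chr14:31139017-31168651, minus strand) are convergent, and the annotated last exon of each overlaps that of the other by a short stretch. The libraries do not mark strand, so reads in that stretch cannot be assigned to either gene. On its far side, Smim4 (chr14:31088127-31128930) was higher by less than 2-fold, with 77.4, 71.2, 69.3 and 89.5 TPM in the KO libraries, against 50.6, 48.5, 52.003 and 52.8 TPM in the WT libraries (limma adjusted p = 0.00739, log2 fold change 0.58 with a standard error of 0.0933). Upstream of Stab1, Nisch (chr14:31170928-31206826), which encodes the imidazoline receptor candidate nischarin, had 102, 91.6, 122 and 105 TPM in the KO libraries, against 60.01, 60.3, 53.9 and 61.4 TPM in the WT libraries (limma adjusted p = 0.000695, log2 fold change 0.82 with a standard error of 0.0952). Smim4, Nt5dc2 and Nisch on both sides of Stab1 were higher in all 4 KO libraries. Smim4 and Nisch passed the adjusted p but not the fold threshold, and the next genes outward passed neither. Pbrm1 had 5.64 to 6.91 TPM in KO LECs and 5.07 to 9.58 TPM in WT LECs. Bap1 had 50.7 to 68.6 TPM in KO LECs and 62.6 to 66.2 TPM in WT LECs. Phf7 had 15.7 to 16.9 TPM in KO LECs and 11.8 to 13.7 TPM in WT LECs, without overlap (limma adjusted p = 0.193, log2 fold change 0.34).

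**Figure D3:**
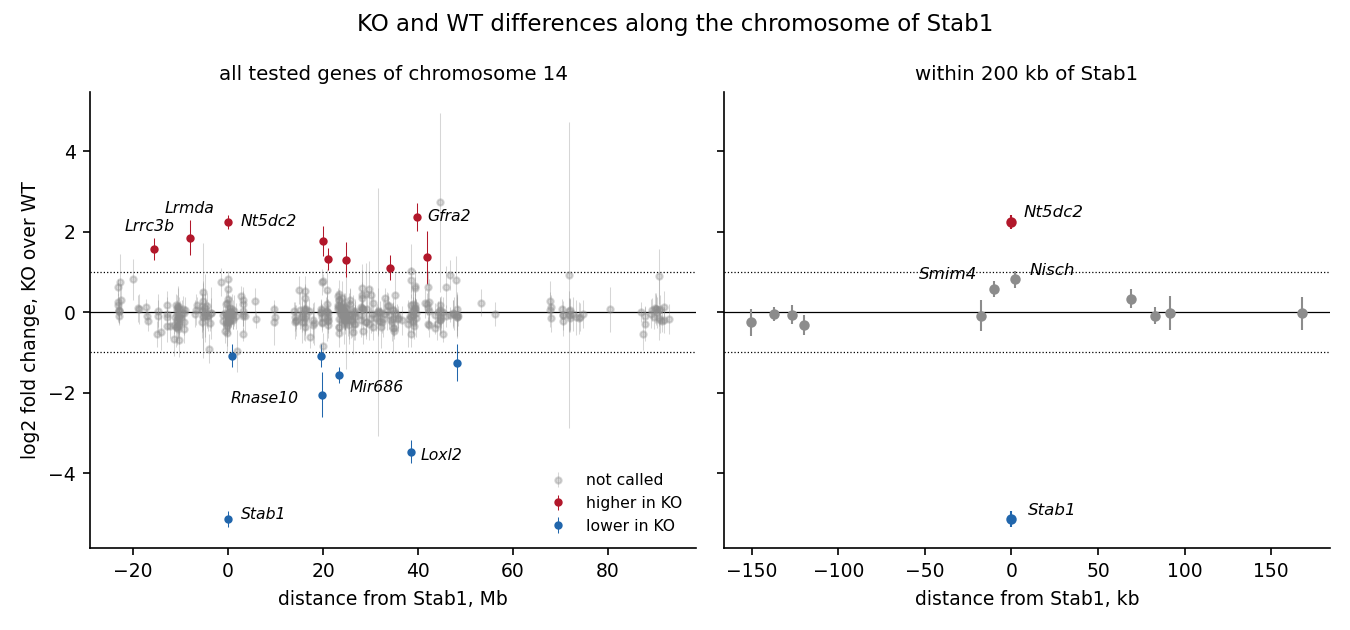
Log2 fold change of KO over WT for the 409 tested genes of chromosome 14 against their distance from Stab1, in Mb (left) and within 200 kb in kb (right). Bars are 95% intervals, red and blue points are called genes and grey points are not called. Stab1 lies at -5.14 and the overlapping Nt5dc2 at 2.26, with Smim4 and Nisch between 0 and 1.

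A further group on chromosome 14 belongs to the ribonuclease A family, secreted enzymes that degrade RNA. Rnase1, the pancreatic-type enzyme of endothelium, had 2.11, 3.202, 1.76 and 2.83 TPM in KO LECs and was listed at 0 in all 4 WT libraries (limma adjusted p = 0.000123). Rnase10 had 0 to 1.07 TPM in KO LECs and 2.88 to 5.38 TPM in WT LECs (limma adjusted p = 0.00114, log2 fold change -2.05). Rnase4 and Ang have overlapping gene models with one start (chr14:51091077-51106151 and chr14:51091077-51102009), so reads in the shared stretch cannot be assigned to either gene, and their values went opposite ways. Rnase4 was higher by less than 2-fold, with 248, 264, 262 and 264 TPM in the KO libraries, against 136, 152, 143 and 176 TPM in the WT libraries (limma adjusted p = 0.000351, log2 fold change 0.78). Ang, which encodes angiogenin, was lower by less than 2-fold, with 14.3, 13.4, 12.3 and 16.3 TPM in the KO libraries, against 24.1, 21.2, 34.1 and 25.4 TPM in the WT libraries (limma adjusted p = 0.0143, log2 fold change -0.84). Rpph1, the RNA subunit of ribonuclease P, lies in the same region and had 6.04 to 8.41 TPM in KO LECs and 14.1 to 18.1 TPM in WT LECs (limma adjusted p = 0.00109, log2 fold change -1.08), just short of the fold threshold without KO replicate 3 (log2 fold change over the single omissions -1.14 to -0.9995). The related gene Rprl3, given above, was higher, and whether Rpph1 and Rprl3 share reads was not tested. Supt16, a subunit of the histone chaperone FACT, had 38.2, 35.96, 41.5 and 31.6 TPM in the KO libraries, against 12.9, 13.7, 13.1 and 17.1 TPM in the WT libraries (limma adjusted p = 0.000123, log2 fold change 1.32).

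One called gene was a microRNA locus, and its sequence bears on how its value can be read. The Mir686 hairpin lies on chromosome 14 (chr14:54616677-54616785 of GRCm38, minus strand). Written 5′ to 3′ from RefSeq with the mature stretch in capitals, and followed by the mature RNA with its seed (bases 2 to 8) in capitals, it reads:
Mir686 hairpin: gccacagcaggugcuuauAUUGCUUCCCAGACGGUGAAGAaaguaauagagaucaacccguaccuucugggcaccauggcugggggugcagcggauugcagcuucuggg
mmu-miR-686: aUUGCUUCccagacggugaaga
All 109 bases of the hairpin lie inside coding exon 2 of Psmb5, a catalytic subunit of the proteasome on the same strand (chr14:54614120-54617995), and the hairpin is found letter for letter in the Psmb5 transcript from its base 266. Reads of 50 bases from this stretch fit both, so the Mir686 value cannot be told apart from Psmb5 mRNA. Mir686 had 551, 545, 547 and 537 TPM in the KO libraries, against 1463, 1787, 1844 and 1398 TPM in the WT libraries (limma adjusted p = 2.29e-06, log2 fold change -1.56 with a standard error of 0.0891). Psmb5 itself was lower by less than 2-fold, with 272, 305, 283 and 284 TPM in the KO libraries, against 354, 364, 404 and 361 TPM in the WT libraries (limma adjusted p = 0.0151, log2 fold change -0.37 with a standard error of 0.0674). Both were lower in all 4 KO libraries, Mir686 by the larger log2 difference. Snora21, too, lies inside another gene. It is located within Rpl23, which had 672 to 842 TPM in KO LECs and 611 to 698 TPM in WT LECs (limma adjusted p = 0.314, log2 fold change 0.21). Snord35b, a small nucleolar RNA, was the only called gene whose libraries overlapped, with 17.6, 8.701, 36.7 and 23.5 TPM in the KO libraries, against 0, 9.73, 0 and 0 TPM in the WT libraries (limma adjusted p = 0.0296, log2 fold change 3.48). It was not called without any one of KO replicate 1, 3 or 4 or WT replicate 1, 3 or 4 (limma adjusted p 8.45e-05 to 0.0898).

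Glycam1, Madcam1 and Fut7, which take part in the capture of lymphocytes by high endothelial venules and LN sinuses, were higher in KO LECs, whereas most other genes of their lists were not called. Of 17 tested genes of selectin ligand synthesis, 2 were higher and 15 were not called (median log2 fold change 0.15), and of 24 adhesion molecules for leukocytes 1 was higher and 23 were not called (median -0.08). Glycam1, a secreted mucin that carries sulfated ligands of L-selectin, was the most abundant called gene, with 4454, 5191, 3873 and 4239.8 TPM in the KO libraries, against 2436, 1948, 2070.4 and 1868 TPM in the WT libraries (limma adjusted p = 0.000113, log2 fold change 1.09). Madcam1, the ligand of integrin alpha4beta7 and a marker of sinus floor LECs, had 851, 899, 855 and 762 TPM in the KO libraries, against 355, 344, 421 and 404 TPM in the WT libraries (limma adjusted p = 1.22e-05, log2 fold change 1.14). For both genes the lowest KO library was above the highest WT library. Fut7, the fucosyltransferase that completes sialyl Lewis x, had 16.1, 17.7, 13.5 and 13.7 TPM in the KO libraries, against 8.32, 2.595, 8.65 and 5.34 TPM in the WT libraries (limma adjusted p = 0.0414, log2 fold change 1.26) and was not called without any one of KO replicate 1, 2, 3 or 4 or WT replicate 2 or 4 (log2 fold change 0.96 to 1.44). The sulfotransferase gene Chst4 did not pass, with 6.91 to 12.4 TPM in KO LECs and 1.72 to 6.83 TPM in WT LECs (limma adjusted p = 0.338, log2 fold change 0.80). Of 14 tested markers of high endothelial venules, 3 were higher and 0 lower, beside 0.431% higher over all genes, and their median log2 fold change was 0.43. Of these markers, 11 had log2 fold changes above 0, where 4747 of all 12058 genes did. In 5 of them, the 3 called ones included, all KO libraries lay above all WT libraries, beside 2.73% of all genes. The summed level of that list was 5535 to 6952 TPM in KO LECs and 3126 to 3614 TPM in WT LECs, but 693 to 845 TPM in KO LECs and 716 to 852 TPM in WT LECs once Glycam1, Madcam1 and Fut7 were left out. The genes left out are those that were called, and abundant genes weigh most in a sum. The second sum therefore does not show that the other markers were unchanged. Blood endothelium markers had a median log2 fold change of 0.33, with 0 higher and 1 lower of 16 tested, beside 0.39% lower over all genes. Ackr1, the chemokine-binding receptor of venules, had 62.7, 71.6, 58.6 and 80.4 TPM in the KO libraries, against 54.8, 49.8, 42.3 and 34.3 TPM in the WT libraries, without overlap but not past the test (limma adjusted p = 0.0828, log2 fold change 0.59). Plvap, the abundant diaphragm protein, had 1324 to 1597 TPM in KO LECs and 1399 to 1637 TPM in WT LECs (limma adjusted p = 0.979, log2 fold change -0.01). Fewer cells of a type and less RNA per cell cannot be told apart in bulk libraries, and whether venule cells in the sort contributed to the higher levels of these genes was not tested.

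Promoters of the higher genes were searched on both strands for a form of the NF-kB binding motif, GGG followed by 2 bases of any kind and then TTTCC, in RefSeq windows of 300 bases around each start. The motif was chosen after the values were seen. Of 39 higher genes with a window, 4 held it (Krt23, Madcam1, Rnase1 and Serpina3n), and 0 of 33 lower genes did. It is in 1.63% of all 32851 windows and in those of 2.05% of the tested genes. The windows of Madcam1 (chr10:79664309-79664608) and Serpina3n (chr12:104406458-104406757), both on the plus strand of GRCm38, are shown because these are the most abundant higher genes that hold it, 5′ to 3′ with each match in capitals:
Madcam1: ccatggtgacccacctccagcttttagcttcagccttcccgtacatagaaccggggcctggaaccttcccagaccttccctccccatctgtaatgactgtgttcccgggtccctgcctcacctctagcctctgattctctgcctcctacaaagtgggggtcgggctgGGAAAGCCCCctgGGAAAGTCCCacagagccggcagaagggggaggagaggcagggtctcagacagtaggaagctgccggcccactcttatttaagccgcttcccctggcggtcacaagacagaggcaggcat
Serpina3n: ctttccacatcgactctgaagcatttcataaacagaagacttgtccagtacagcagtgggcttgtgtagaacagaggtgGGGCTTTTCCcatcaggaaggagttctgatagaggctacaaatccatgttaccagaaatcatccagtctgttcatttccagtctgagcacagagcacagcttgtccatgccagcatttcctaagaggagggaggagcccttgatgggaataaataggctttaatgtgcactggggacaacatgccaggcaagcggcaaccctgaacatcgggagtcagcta
Madcam1 holds 2 matches on the minus strand, and Serpina3n holds 1 on the plus strand. Glycam1 has a window without a match. A match describes the letters only.

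Cytokine genes and genes of interleukin-1 signalling were examined next. Of 19 tested interleukins and cytokines, 2 were higher (Il1b and Csf3) and 0 lower, beside 0.431% higher and 0.39% lower over all genes, with a median log2 fold change of 0.01. Il1b, the interleukin that activates endothelium, had 15.5, 16.4, 11.1 and 11.1 TPM in the KO libraries, against 3.49, 5.76, 6.88 and 3.02 TPM in the WT libraries (limma adjusted p = 0.00947, log2 fold change 1.36). Csf3, the growth factor of neutrophils, had 18.9, 22.4, 15.9 and 15.03 TPM in the KO libraries, against 8.63, 5.104, 7.62 and 5.39 TPM in the WT libraries (limma adjusted p = 0.00227, log2 fold change 1.32). Csf2, which drives granulocytes and macrophages, overlapped, with 2.94 to 5.57 TPM in KO LECs and 3.72 to 12.2 TPM in WT LECs (limma adjusted p = 0.311, log2 fold change -0.80). Downstream of interleukin-1, Irak4, the kinase that starts signalling from its receptor and from Toll-like receptors, had 10.4, 10.9, 8.48 and 7.299 TPM in the KO libraries, against 24.995, 27.2, 26.9 and 20.1 TPM in the WT libraries (limma adjusted p = 0.000517, log2 fold change -1.33). Il1r2, the decoy receptor, had 4.25, 4.15, 4.91 and 2.29 TPM in the KO libraries, against 1.98, 0.623, 1.22 and 0.9399 TPM in the WT libraries (limma adjusted p = 0.0259, log2 fold change 1.17) and was not called without any one of KO replicate 1, 2 or 3 or WT replicate 2, 3 or 4 (limma adjusted p 0.0112 to 0.0883). The other 17 of 19 tested genes of this pathway were not called. Nfkbia, the inhibitor that NF-kB itself induces, was higher by less than 2-fold in all 4 KO libraries, with 1129.5, 1209, 1079 and 989.6 TPM in the KO libraries, against 883, 873, 854 and 893 TPM in the WT libraries (limma adjusted p = 0.0334, log2 fold change 0.33 with a standard error of 0.0676). Of 16 tested NF-kB subunits and inhibitors, 0 were called.

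Chemokine genes were not called in either direction (22 tested, log2 fold changes -0.75 to 0.65, median -0.07). The largest were those of Ccl8, a ligand that attracts monocytes and T cells, with 14.7 to 26.6 TPM in KO LECs and 27.4 to 56.2 TPM in WT LECs (limma adjusted p = 0.164, log2 fold change -0.75), and Cxcl9, an interferon-gamma target, with 30.4 to 57.3 TPM in KO LECs and 18.6 to 40.4 TPM in WT LECs (limma adjusted p = 0.288, log2 fold change 0.65). Among 10 tested chemokine receptors, Ccr7, which guides dendritic cells and T cells to the LN, was the only one called, beside 0.431% higher over all genes. It had 14.5, 16.8, 25.6 and 15.7 TPM in the KO libraries, against 6.503, 6.53, 8.09 and 7.69 TPM in the WT libraries (limma adjusted p = 0.00335, log2 fold change 1.19). Atypical receptors, which bind chemokines without classical signalling, went both ways. Ccrl2, which binds the attractant chemerin, was higher by less than 2-fold, with 73.997, 75.9, 63.8 and 70.1 TPM in the KO libraries, against 57.6, 53.8, 53.6 and 53.8 TPM in the WT libraries (limma adjusted p = 0.049001, log2 fold change 0.37). Ackr1, given above, had all KO libraries above all WT libraries and did not pass. Ackr2, the sink for inflammatory CC chemokines, was lower by less than 2-fold, with 133, 117, 183 and 137 TPM in the KO libraries, against 230.1, 308, 195 and 208 TPM in the WT libraries (limma adjusted p = 0.0436, log2 fold change -0.71). Ackr3 and Ackr4 were without overlap in the same direction but did not pass, with 47.1 to 72.2 TPM in KO LECs and 73.4 to 85.4 TPM in WT LECs for Ackr3 and 475 to 611 TPM in KO LECs and 667 to 827 TPM in WT LECs for Ackr4 (limma adjusted p = 0.0901 and 0.0934).

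Markers of neutrophil granules were higher in part. Of 7 that could be tested, 3 were higher (S100a9, Ctsg and Il1r2, the last lost in 6 of 8 single omissions), 0 were lower, beside 0.431% higher over all genes, and the median log2 fold change was 1.17. Ctsg, which encodes cathepsin G, had 15.2, 16.6, 9.796 and 8.48 TPM in the KO libraries, against 4.74, 4.205, 3.9995 and 4.23 TPM in the WT libraries (limma adjusted p = 0.00475, log2 fold change 1.30). S100a8, the partner of S100a9, overlapped, with 26.03, 27.02, 34.3 and 14.5 TPM in the KO libraries, against 20.7, 12.3, 6.99 and 2.46 TPM in the WT libraries (limma adjusted p = 0.2199, log2 fold change 1.42). Mmp9, a gelatinase that endothelium also makes, was higher by less than 2-fold, with 184 to 228 TPM in KO LECs and 137 to 169.9 TPM in WT LECs (limma adjusted p = 0.0167, log2 fold change 0.49). Other defining genes of neutrophils were uneven between libraries. Ly6g was listed at 0 in all KO libraries and reached 0.175 TPM in WT LECs, and Mpo had 0 to 0.559 TPM in KO LECs and 0 to 7.21 TPM in WT LECs. Ngp, a granule protein, had 0, 0.835, 12.5 and 0.942 TPM in the KO libraries, against 0, 0, 0 and 0 TPM in the WT libraries. The summed level of the 17 genes was 265 to 347 TPM in KO LECs and 191 to 215 TPM in WT LECs, and 243 to 316 TPM in KO LECs and 179.9 to 205 TPM in WT LECs without the called ones. Mmp9, at 184 to 228 TPM in KO LECs and 137 to 169.9 TPM in WT LECs, made up most of both sums. The part of neutrophil RNA in these values was not tested.

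Markers of other leukocytes gave 2 further genes at an adjusted p of 0.05 under the fold threshold, Cd79a and Cd79b, the signalling chains of the B cell receptor. Cd79a had 22.3, 21.6, 29.2 and 16.95 TPM in the KO libraries, against 10.5, 10.1, 11.1 and 13.6 TPM in the WT libraries (limma adjusted p = 0.0132, log2 fold change 0.91) and Cd79b had 90.05, 85.8, 91.9 and 90.98 TPM in the KO libraries, against 63.98, 58.7, 51.99 and 74.3 TPM in the WT libraries (limma adjusted p = 0.0239, log2 fold change 0.53). Ms4a1, a surface protein of B cells, overlapped between the groups, with 0.978 to 1.43 TPM in KO LECs and 0.247 to 2.28 TPM in WT LECs. The summed level of 11 B cell genes was 142 to 157 TPM in KO LECs and 102 to 124 TPM in WT LECs. Pan-leukocyte genes summed to 802 to 921 TPM in KO LECs and 814 to 979 TPM in WT LECs and none of 10 was called. The macrophage and dendritic cell list summed to 484 to 625 TPM in KO LECs and 462 to 1209 TPM in WT LECs, where WT replicate 3 was highest through Lyz2, at 845 TPM. In that list Cd5l, a secreted scavenger protein of macrophages, had 2.32, 2.07, 5.62 and 3.23 TPM in the KO libraries, against 5.97, 9.56, 11.6 and 7.91 TPM in the WT libraries (limma adjusted p = 0.0372, log2 fold change -1.21) and was not called without any one of KO replicate 1, 2 or 4 or WT replicate 2, 3 or 4 (limma adjusted p 0.00975 to 0.115). Thy1, a glycoprotein of T cells, stroma and LECs, had 56.1, 44.3, 56.2 and 47.1 TPM in the KO libraries, against 166, 153, 133 and 102 TPM in the WT libraries (limma adjusted p = 0.000212, log2 fold change -1.41). The T cell receptor subunit genes Cd3d, Cd3e and Cd3g overlapped between the groups. Siglech, a lectin of plasmacytoid dendritic cells, had 1.44 to 2.65 TPM in KO LECs and 4.56 to 6.26 TPM in WT LECs (limma adjusted p = 0.00434, log2 fold change -1.13). Whether the share of each leukocyte type in the sort differed was not tested.

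Interferon-stimulated genes, which mark a response to type I or type II interferon, gave no calls. Of 44 tested, 39 had positive log2 fold changes, where 4747 of all 12058 genes did. The range was -0.14 to 0.78 and the median 0.18, beside a median of -0.04 over all genes. Of the list, 4 genes had all KO libraries above all WT libraries, where 2.73% of all tested genes did. Rsad2, the antiviral enzyme viperin, was among them, with 17.5, 31.2, 13.2 and 13.5 TPM in the KO libraries, against 10.8, 12.3, 12.3 and 8.798 TPM in the WT libraries (limma adjusted p = 0.289, log2 fold change 0.65). Within the p200 family, sensors of DNA clustered on chromosome 1, members went in opposite directions. Against the higher Ifi202b, Ifi211 had 6.599 to 10.3 TPM in KO LECs and 14.5 to 22.1 TPM in WT LECs (limma adjusted p = 0.00918, log2 fold change -1.001) and was not called without any one of KO replicate 3 or WT replicate 2 or 3 (log2 fold change -1.11 to -0.88). Ifi204 was lower by less than 2-fold, with 12.3 to 17.5 TPM in KO LECs and 23.7 to 30.8 TPM in WT LECs (limma adjusted p = 0.006199, log2 fold change -0.87). Paralogs of this family can share reads. Immediate early genes, which are induced within minutes by many stimuli including tissue digestion, gave no call, while 24 of 26 tested were above 0, 11 had all KO above all WT libraries, and the median log2 fold change was 0.25. At an adjusted p of 0.05 under the fold threshold were Fosb, Ier3, Klf2 and Gadd45b, where 1% of all genes were higher by that measure. Fosb, a subunit of AP-1, had 81.5, 86.995, 77.004 and 75.6 TPM in the KO libraries, against 53.3, 54.4, 52.1 and 49.9 TPM in the WT libraries (limma adjusted p = 0.00135, log2 fold change 0.60). Gadd45b, a stress-induced regulator of the cell cycle, had 170.0 to 221 TPM in KO LECs and 108 to 141 TPM in WT LECs (limma adjusted p = 0.0118, log2 fold change 0.62). Among 24 heat shock and unfolded protein genes, only Dnajb1 reached that level, with 495 to 619 TPM in KO LECs and 406 to 453 TPM in WT LECs (limma adjusted p = 0.047998, log2 fold change 0.37). Whether handling of the tissue differed between the genotypes was not tested.

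Antigen presentation by LECs, which can tolerize T cells, held no called gene. All 24 tested genes of MHC class I presentation and all 11 of class II presentation had 95% intervals within 1 on either side of 0, as had all 17 checkpoint and tolerance ligands, beside 94.6% of all tested genes. Their median log2 fold changes were -0.01, -0.06 and -0.01. Vsir, the checkpoint ligand VISTA, had 236 to 264 TPM in KO LECs and 292 to 312 TPM in WT LECs without overlap (limma adjusted p = 0.0901, log2 fold change -0.25), and Cd47, which restrains phagocytosis, had 450.3 to 535 TPM in KO LECs and 541 to 660.2 TPM in WT LECs (limma adjusted p = 0.155, log2 fold change -0.28). None of 18 tested complement genes was called.

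The LEC subsets were compared through their markers. Of 24 tested identity genes, 23 had intervals within 1 on either side of 0, and Thy1 was the only one called, beside 0.39% lower over all genes. The summed level of sinus ceiling markers was 1314 to 1769.9 TPM in KO LECs and 1703 to 2119 TPM in WT LECs, with a median log2 fold change of -0.30 and no call among 7 genes. In that list, Cav1, the coat protein of caveolae, had 164 to 197 TPM in KO LECs and 203 to 279.8 TPM in WT LECs (limma adjusted p = 0.0901, log2 fold change -0.40), without overlap. Sinus floor markers summed to 6710.1 to 7656 TPM in KO LECs and 4089 to 4596 TPM in WT LECs, and to 1566 to 1983 TPM in KO LECs and 1785 to 1894 TPM in WT LECs without Glycam1 and Madcam1, where the groups overlapped. Glycam1 and Madcam1 were left out because they were called, so this overlap does not show that the other markers were unchanged. Medullary markers other than Stab1 were not called, and their summed levels were 6732 to 8571 TPM in KO LECs and 8002 to 8593 TPM in WT LECs. Clec1b, the receptor for podoplanin that is also listed there, had 99.2, 72.96, 95.5 and 96.3 TPM in the KO libraries, against 124, 125, 114 and 122 TPM in the WT libraries (limma adjusted p = 0.0678, log2 fold change -0.42). Marco, the most abundant scavenger receptor of medullary sinuses in the list, had 4528 to 6206 TPM in KO LECs and 5531 to 5941 TPM in WT LECs (limma adjusted p = 0.828, log2 fold change -0.07). The 5 Ptx3 LEC markers all had log2 fold changes below 0 (-0.76 to -0.18), where 4747 of all 12058 genes were above 0, and none was called. Ptx3, a soluble pattern recognition receptor, had 10.7, 8.12, 7.61 and 6.02 TPM in the KO libraries, against 15.2, 15.2, 10.8 and 16.2 TPM in the WT libraries (limma adjusted p = 0.06603, log2 fold change -0.76). Among valve and collecting vessel markers, Esam, a junctional adhesion molecule, was higher by less than 2-fold, with 90.8 to 108 TPM in KO LECs and 48.5 to 81.8 TPM in WT LECs (limma adjusted p = 0.0386, log2 fold change 0.65). Shares of LEC subsets in each library were not measured.

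**Figure D4:**
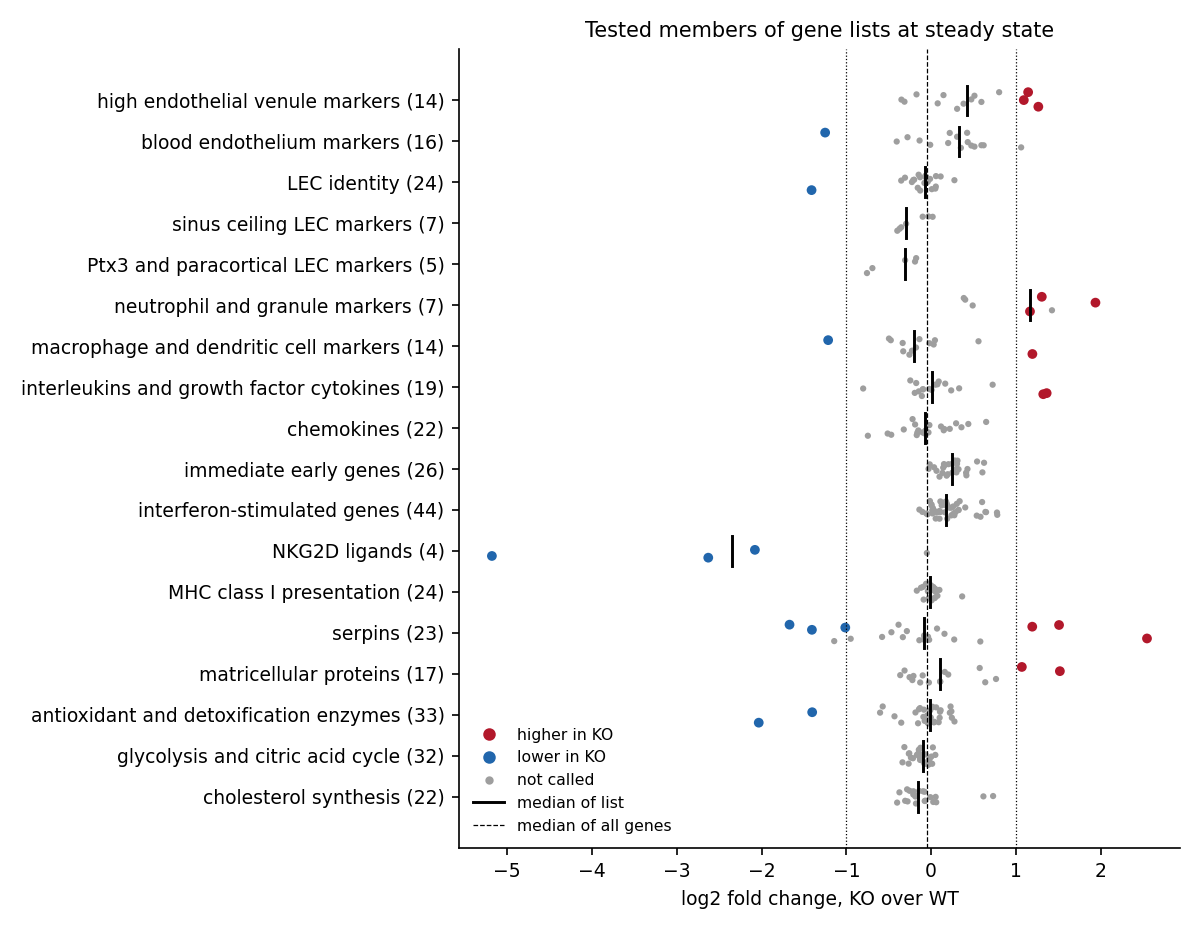
Log2 fold changes of KO over WT for the tested members of gene lists, 1 point for each gene, with the number tested beside the name of the list. Red and blue points are called genes, black bars are medians of the lists and the dashed line is the median of all genes, -0.04. The lists of immediate early and interferon-stimulated genes lie to the right of that line without a call, at medians of 0.25 and 0.18.

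Matrix genes other than Loxl2 gave 2 calls among 17 matricellular proteins and 0 among 30 collagens, laminins and nidogens. Both calls were higher, beside 0.431% higher over all genes. Postn, which encodes periostin, a ligand of alpha v integrins, had 673, 685, 759.8 and 654 TPM in the KO libraries, against 224, 196, 221 and 347 TPM in the WT libraries (limma adjusted p = 0.000134, log2 fold change 1.52). Smoc1, a calcium-binding matrix protein, had 3.899 to 7.37 TPM in KO LECs and 1.29 to 2.63 TPM in WT LECs (limma adjusted p = 0.0247, log2 fold change 1.07) and was not called without any one of KO replicate 2 or 3 or WT replicate 1 or 4 (limma adjusted p 0.0295 to 0.07495). Of 14 tested genes of collagen crosslinking, Loxl2 was the only one called, beside 0.39% lower over all genes. Loxl4, of the same enzyme family, had 9.83 to 15.6 TPM in KO LECs and 6.96 to 11.3 TPM in WT LECs (limma adjusted p = 0.412, log2 fold change 0.41). Ddr2, a receptor for fibrillar collagen, was higher, with 19.1, 16.2, 20.9 and 13.7 TPM in the KO libraries, against 6.87, 5.06, 5.26 and 7.53 TPM in the WT libraries (limma adjusted p = 0.000996, log2 fold change 1.36). Rgcc, a regulator of the cell cycle and of endothelial growth, was lower, with 5.26, 10.7, 4.78 and 5.51 TPM in the KO libraries, against 14.5, 16.2, 16.4 and 18.03 TPM in the WT libraries (limma adjusted p = 0.00827, log2 fold change -1.25). Nid2, a basement membrane linker, had 13.9 to 25.1 TPM in KO LECs and 21.4 to 33.6 TPM in WT LECs (limma adjusted p = 0.125, log2 fold change -0.67).

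Cdk2 and Pttg1 stood alone among the called genes of their lists. Of 27 tested cyclins, kinases and G1 regulators, Cdk2 alone was called, and of 27 mitosis and replication genes, Pttg1 alone. Over all genes 0.431% were higher and 0.39% lower. Bub1b, a spindle checkpoint kinase, was lower by less than 2-fold, with 11.6 to 14.7 TPM in KO LECs and 15.5 to 29.2 TPM in WT LECs (limma adjusted p = 0.0468, log2 fold change -0.82). Cdk1 had 2.62 to 3.603 TPM in KO LECs and 1.404 to 3.84 TPM in WT LECs (limma adjusted p = 0.805, log2 fold change 0.19). The glycolysis and citric acid cycle list held 0 calls in 32 genes with a median of -0.10, and the cholesterol synthesis list held 0 in 22 with a median of -0.16. Among 18 tested scavenger receptors only Cd5l and the targeted gene Stab1 were called, both lower, beside 0.39% lower over all genes. Msr1, the class A receptor, had 384 to 466 TPM in KO LECs and 310.0 to 418 TPM in WT LECs (limma adjusted p = 0.2503, log2 fold change 0.28). None of 19 tested C-type lectins was called. Clec4n, which encodes dectin-2, came nearest, with 11.6, 11.2, 15.03 and 9.19 TPM in the KO libraries, against 19.7, 19.1, 29.5 and 17.1 TPM in the WT libraries (limma adjusted p = 0.0575, log2 fold change -0.80).

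Further called genes lay outside these groups. Among the higher ones, Adh1, the alcohol dehydrogenase that also oxidizes retinol, had 353, 239, 351 and 379 TPM in the KO libraries, against 177, 153, 144 and 178 TPM in the WT libraries (limma adjusted p = 0.00193, log2 fold change 1.001) and fell under the fold threshold without any one of KO replicate 1, 3 or 4 or WT replicate 2 or 3 (log2 fold change 0.93 to 1.15). Cdk5rap1, a mitochondrial tRNA-modifying enzyme, had 72.5, 69.8, 75.2 and 76.6 TPM in the KO libraries, against 24.1, 43.6, 23.2 and 23.6 TPM in the WT libraries (limma adjusted p = 0.00114, log2 fold change 1.38). Mdk, the heparin-binding growth factor midkine, had 23.2 to 35.0002 TPM in KO LECs and 9.92 to 17.5 TPM in WT LECs (limma adjusted p = 0.01202, log2 fold change 1.01), with a log2 fold change of 0.87 to 1.13 over the single omissions and no call without any one of KO replicate 2 or 4 or WT replicate 1 or 4. Among the lower genes, Prss23, a serine protease of endothelium, had 50.3, 84.5, 69.6 and 61.3 TPM in the KO libraries, against 118, 163, 112 and 157 TPM in the WT libraries (limma adjusted p = 0.00597, log2 fold change -1.04) and was not called without any one of KO replicate 1 or WT replicate 2 or 4. Hyou1, a chaperone of the endoplasmic reticulum, had 29.6, 31.2, 37.3 and 32.7 TPM in the KO libraries, against 84.9, 94.2, 75.3 and 65.6 TPM in the WT libraries (limma adjusted p = 0.000132, log2 fold change -1.26). Ablim1, an actin-binding LIM protein, had 31.98, 34.5, 34.3 and 26.96 TPM in the KO libraries, against 69.7, 78.2, 69.3 and 74.3 TPM in the WT libraries (limma adjusted p = 4.76e-05, log2 fold change -1.17). Hpgd, which inactivates prostaglandins, had 3.33 to 5.81 TPM in KO LECs and 8.82 to 13.3 TPM in WT LECs (limma adjusted p = 0.00827, log2 fold change -1.08) and was not called without any one of KO replicate 4 or WT replicate 4. Duox2, an oxidase that makes hydrogen peroxide, had 0.814 to 1.499 TPM in KO LECs and 2.83 to 4.99 TPM in WT LECs (limma adjusted p = 0.00464, log2 fold change -1.19). Lefty1, a secreted antagonist of Nodal, had 1.68 to 5.22 TPM in KO LECs and 7.53 to 9.65 TPM in WT LECs (limma adjusted p = 0.00947, log2 fold change -1.35).

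Smaller differences in abundant genes added to these. At an adjusted p of 0.05 with no fold threshold, 218 genes differed, or 1.81%, of which 119 (69 higher, 50 lower) had log2 fold changes of 0.2803 to 0.987 in size. Without any one library the count was 133 to 200, lowest without WT replicate 2 and 139 to 145 without any one KO library. The most abundant was Ctsl, the lysosomal protease cathepsin L, with 1707, 1656, 1709.9 and 1688 TPM in the KO libraries, against 1036, 941, 934 and 1103 TPM in the WT libraries (limma adjusted p = 6.1e-05, log2 fold change 0.75 with a standard error of 0.0654). Lgmn, the lysosomal asparaginyl endopeptidase legumain, had 913, 779, 831 and 872 TPM in the KO libraries, against 689.8, 708, 684 and 662 TPM in the WT libraries (limma adjusted p = 0.0361, log2 fold change 0.30). These lysosomal proteases were higher in all 4 KO libraries. Ppp1r15a, also called Gadd34, which restores translation after stress, had 805, 863, 863 and 797 TPM in the KO libraries, against 627, 642, 640.0 and 628 TPM in the WT libraries (limma adjusted p = 0.00312, log2 fold change 0.39). Ier3, an immediate early survival gene, had 679, 741, 662 and 659 TPM in the KO libraries, against 504, 499, 539.7 and 493 TPM in the WT libraries (limma adjusted p = 0.00362, log2 fold change 0.43). Ces2e, a carboxylesterase, had 641 to 716 TPM in KO LECs and 447 to 516 TPM in WT LECs (limma adjusted p = 0.00121, log2 fold change 0.51). Pea15a, a death effector domain protein, had 735 to 822 TPM in KO LECs and 615 to 668 TPM in WT LECs (limma adjusted p = 0.0371, log2 fold change 0.28). Degs1, a desaturase of ceramide synthesis, had 606 to 647 TPM in KO LECs and 426 to 557 TPM in WT LECs (limma adjusted p = 0.0309, log2 fold change 0.39). Tagln2, an actin-binding protein, was lower in all 4 KO libraries, with 517, 606, 577 and 557 TPM in the KO libraries, against 773, 915, 931 and 636 TPM in the WT libraries (limma adjusted p = 0.0429, log2 fold change -0.51).

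The steady state differences were then looked up in the inflamed LECs, which are separate libraries of the same genotypes. Of the 99 genes 89 could be tested there, and 27 were called in the same direction (14 higher, 13 lower), where 0.316% of all 12030 genes were called. None was called in the opposite direction, and 46 of 48 higher and 38 of 41 lower genes kept their sign. WT inflamed replicate 2 stood apart from every other library, with 10903 genes at 1 TPM. Without it 40 of 83 were called in the same direction (21 higher, 19 lower, beside 0.653% of all genes). Leaving out any one of the other 7 inflamed libraries lowered both counts, and over all 8 single omissions they were 2 to 21 higher and 6 to 19 lower genes.

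Nt5dc2 had 617, 532, 557 and 616 TPM in KO inflamed LECs, against 40.3, 86.5, 40.2 and 43.4 TPM in WT inflamed LECs (log2 fold change 3.52, limma adjusted p = 0.000418). Loxl2 had 1.81, 2.08, 3.44 and 2.53 TPM in KO inflamed LECs, against 42.6, 12.9, 47.02 and 43.3 TPM in WT inflamed LECs (log2 fold change -3.30, limma adjusted p = 0.0117). Raet1e had 1.799, 1.801, 3.84 and 1.297 TPM in KO inflamed LECs, against 73.03, 54.2, 73.2 and 75.9 TPM in WT inflamed LECs (log2 fold change -4.51, limma adjusted p = 0.000132). In these 3 genes no KO library overlapped a WT library. Snora21, by contrast, had 0, 16.8, 0 and 8.61 TPM in KO inflamed LECs, against 0, 5.17, 15.2 and 0 TPM in WT inflamed LECs (limma adjusted p = 0.939). S100a9 had 0.398, 0.168, 2.58 and 4.48 TPM in KO inflamed LECs, against 0.237, 4.04, 10.05 and 0.589 TPM in WT inflamed LECs (log2 fold change -0.44, limma adjusted p = 0.781). Tmem218 had 52.3, 56.1, 54.6 and 66.1 TPM in KO inflamed LECs, against 39.2, 65.4, 56.1 and 97.1 TPM in WT inflamed LECs (log2 fold change -0.10, limma adjusted p = 0.853). For Glycam1 the log2 fold change was 0.22 and for Madcam1 0.47 (limma adjusted p = 0.778 and 0.717).

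A gene called in one state only is not thereby shown to differ between the states, so the interaction of genotype and injection was tested over all 16 libraries. Of 12684 genes, 0 passed in limma, and 542 had an unadjusted p of at most 0.05, among them 37 of the 99 steady state genes. These 99 genes were chosen for a large steady state difference, which is itself a part of this contrast. Their share among the low p-values is raised by that choice, and no conclusion is drawn from it. The lowest adjusted p among the steady state genes was 0.0573, for Rnase1. Without WT inflamed replicate 2, 7 of 12666 genes had an adjusted p of 0.05 or less, and 5 of the steady state genes passed. The same limit of choice applies to these genes. Nt5dc2 (interaction log2 difference 1.52, limma adjusted p = 4.29e-06), Supt16 (1.11, 0.0257), Pttg1 (1.401, 0.0465) and Tmem218 (1.77, 0.0465) had a more positive KO to WT difference in inflamed than in steady state LECs, and Rnase1 a less positive one (-1.51, 0.0465).

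**Figure D5:**
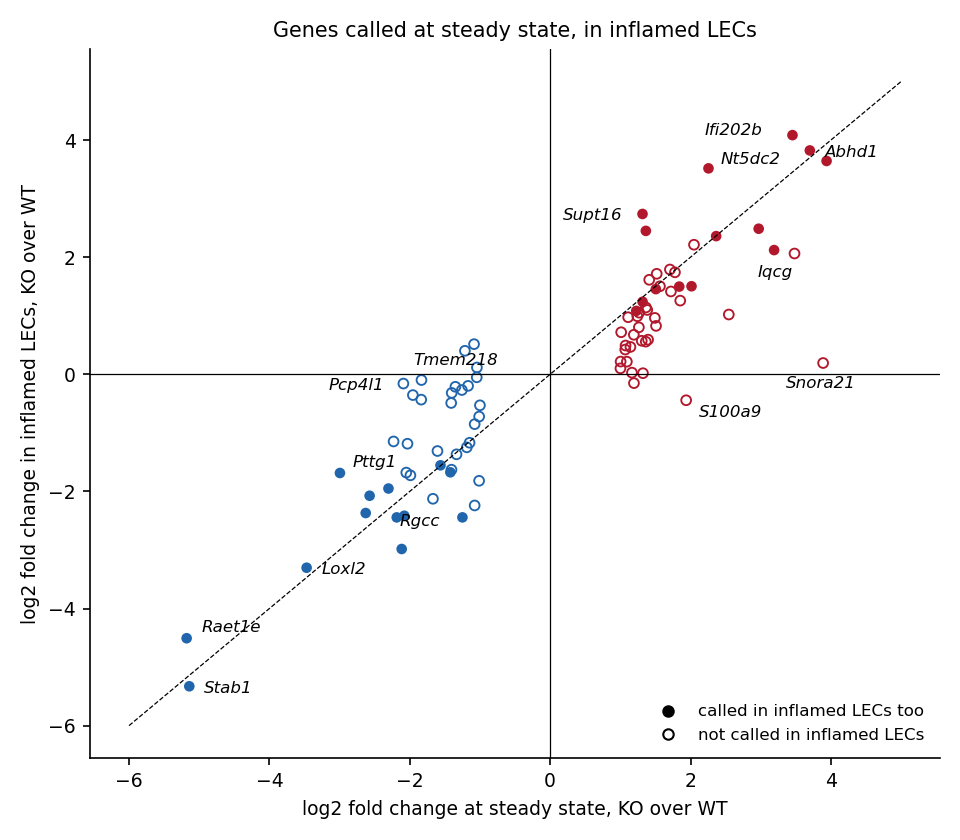
Log2 fold changes of KO over WT at steady state (x axis) and in inflamed LECs (y axis) for the 89 genes called at steady state that could be tested in both, with a dashed line of equal values. Filled points are the 27 genes called in inflamed LECs too and open points those not called there. Stab1, Raet1e, Loxl2 and Abhd1 lie near the line, and Snora21 and S100a9 near 0 on the y axis.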

How the data were processed

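RNA of sorted LECs was amplified with SMART-Seq v4, made into Nextera XT libraries and read as single ends of 50 bases on an Illumina HiSeq. Per the labels and the methods, the authors aligned reads to mm10 with STAR 2.5.2b; Subread and limma are named in the submitters' processing notes and salmon and DESeq2 in the methods. The deposited values are TPM per gene in 3 tables, whose 8 repeated columns were identical; no depth can be recovered from TPM. Of each table, 26 gene names that had turned into dates were left out and 24946 kept. Tables of the authors' own fold changes and p-values for their comparisons, with gene selections, were not used. Inflamed KO and WT values stand in different tables, and were compared because the columns these share with the steady state table are identical. Groups came from the labels. Whether the 4 libraries of a group came from separate litters or days is not given, so p-values measure the spread between these libraries, each of 2 pooled mice.

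Genes that reached 1 TPM in 4 or more of the 8 libraries were tested as log2(TPM + 1) with limma 3.58.1 (R 4.3.3, eBayes with trend) and Benjamini-Hochberg adjustment, and the procedure was tested on simulated data. Inflamed libraries were fitted the same way, and the interaction over all 16. Alternatives were other pseudocounts, filters and scalings, no trend, array weights, a replicate block, 1 fit of all libraries and each library left out. Genes given per library were the 14 highest and 14 lowest called genes whose groups did not overlap and with a group mean of at least 5 TPM, the 10 most abundant genes under the fold threshold, and up to 4 members of a list with the largest log2 fold changes. Other genes named were chosen after their values were seen. Positions and sequences are RefSeq GRCm38.p6, matched by symbol for 12040 of 12058 genes. The comparison, the gene lists and the tests were chosen with earlier results of these data known.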

Additional observations from a re-analysis of the deposited data

Results flagged for a closer look

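Single libraries were set against the other 3 of their group for the genes given per library, by Dixon's ratio of the gap to the range, which chance alone passes in about 1 of 20 groups. Of 86 groups of 4 libraries, 6 passed. Serpina1e had 11.3 TPM in WT replicate 1 and 4.47 to 5.204 TPM in the other 3 WT libraries. S100a9 had 11.3 TPM in KO replicate 4 and 16.8 to 17.4 TPM in the other 3 KO libraries. Lrrc3b had 37.4 TPM in KO replicate 4 and 45.1 to 45.8 TPM in the other 3 KO libraries. Serpina3h had 261 TPM in KO replicate 3 and 92.6 to 118 TPM in the other 3 KO libraries. Degs1 had 606 TPM in KO replicate 3 and 644 to 647 TPM in the other 3 KO libraries. Pdpn had 69.9 TPM in WT replicate 2 and 75.98 to 76.9 TPM in the other 3 WT libraries. These values came from 4 different libraries, KO replicates 3 and 4 and WT replicates 1 and 2, and none of them is WT replicate 4.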

How the results depend on the processing

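A pseudocount of 5 TPM left 24 higher and 21 lower genes, a fit over all 16 libraries 35 and 31, and single omissions 30 to 50 and 35 to 46. The other settings stayed within 1.5 times of 52 and 47. Without a fold threshold, array weights gave 383 genes, the fit over 16 libraries 95 and single omissions 133 to 200, beside 218. With no filter on low values 17569 intervals lay within 1 on either side of 0, because more genes were tested. Rescaling by the median ratio and quantile normalization moved the median of all genes by 0.03597 and 0.0345. Single omissions of inflamed libraries gave 2 to 21 higher and 6 to 19 lower genes shared with the inflamed comparison. For the interaction, rescaling by the median ratio gave 2 steady state genes (Rnase1 and Supt16) and omission of WT inflamed replicate 2 gave 5. Within 10 Mb of Stab1, with Stab1 itself counted, 4 genes were called, a smaller region. No single gene reversed its sign where it was called. Same-numbered KO and WT libraries have neighbouring sample numbers in the labels, and whether they were prepared together is not given. Their deviations correlated at -0.0386 to -0.00173, beside -0.104 to 0.138 for KO and WT libraries of other numbers. With a replicate block 49 genes were higher and 46 lower, 151 differed without a fold threshold, and the block left 8 higher and 9 lower genes shared with the inflamed comparison. Where a count moved, the cause was not tested. TPM keep no depth, so values near 1 TPM have unknown counting error.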
